A study of Mus musculus with 8 samples.

Results

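The transcripts of 10 genes that build or switch on AMP-activated protein kinase (AMPK) were followed in the kidneys of diabetic mice given recombinant fibroblast growth factor 4 (rFGF4) or vehicle. The genes were picked by name among the 55401 of the expression table. They are the catalytic subunits *Prkaa1* and *Prkaa2*, the scaffold subunits *Prkab1* and *Prkab2*, the regulatory subunits *Prkag1*, *Prkag2* and *Prkag3*, and the upstream kinases *Stk11* (LKB1), *Camkk1* and *Camkk2*. Poly(A) RNA from kidney tissue was sequenced in 8 mice, with 1 library per mouse: 4 treated with rFGF4 (mice 1, 2, 3 and 5) and 4 with vehicle (mice 2, 3, 4 and 5). Both groups were diabetic, with no non-diabetic mouse among them, so the comparison is of rFGF4 against vehicle within diabetes. The study looked for mediators downstream of FGF4 in the diabetic kidney, AMPK among them. The labels call the vehicle group *db*/*db* mice, which lack a working long leptin receptor, and give the other group by its treatment alone, whereas the study's text describes the sequenced mice as male mice made diabetic with streptozotocin. The files do not settle which model it was. The labels give no age, and in the regimens that the study describes for both models treatment began in adult mice.

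AMPK is a trimer of 1 α, 1 β and 1 γ subunit that senses cellular energy. The α subunit carries the kinase domain, the β subunit binds glycogen and holds the trimer together, and the γ subunit binds AMP, ADP and ATP. LKB1, in complex with STRAD and MO25, phosphorylates the activation loop of α when AMP and ADP build up, and CaMKK2 does so when calcium rises. Active AMPK restrains fat and protein synthesis and promotes fat oxidation, glucose uptake and autophagy. In the kidney it is known for matching ion transport to energy supply in the tubule and for its role in podocytes. Phosphorylation and nucleotide binding set the activity of the enzyme, so the transcript levels below measure how much mRNA for each part was present and not whether the kinase was active.

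The table gives FPKM, that is, fragments scaled to the length of the transcript and to the mapped fragments of the library. It holds no read counts, so the depth behind each value is unknown and the mice are the only source of error. Summed over genes, FPKM reached 389407 to 529835 with rFGF4 and 481321 to 552604 with vehicle, of which mitochondrial transcripts made up 19.0 to 36.0% and 24.4 to 38.4%. Kidney markers were abundant, with 654 to 1213 FPKM of *Umod* (uromodulin), although one protocol label calls the RNA adipose. Markers of fat cells summed to at most 0.186 FPKM. Libraries stood apart in both groups: rFGF4 mouse 1 had the lowest sum of 5 proximal tubule markers (243 FPKM, against 701 to 1214 in the other 7 mice), and vehicle mouse 5 had 22374 FPKM of B lymphocyte markers, against 22.5 to 2643 in the others. The 3 macrophage markers summed to 83.2 and 84.2 FPKM in these mice and to 8.68 to 31.8 in the other 6. In bulk kidney tissue, fewer cells of a type and less RNA per cell cannot be told apart.

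All 10 genes were detected and passed the filter on low values (0.5 FPKM or more in 4 libraries or more). In order of the mean over the 8 mice, *Prkag1* came first with 26.6 FPKM, followed by *Prkab1* with 16.4, *Stk11* with 12.4, *Prkaa2* with 11.4, *Prkag2* with 7.07, *Prkaa1* with 5.48, *Prkag3* with 4.48, *Prkab2* with 2.25, *Camkk2* with 1.73 and *Camkk1* with 0.698 FPKM. *Prkag1* exceeded *Prkab1*, *Prkab1* exceeded *Stk11*, and *Prkaa2* exceeded *Prkag2* in 8 of 8 mice. *Stk11* and *Prkaa2* changed places between mice, with *Stk11* higher in 5 of 8, as did *Prkaa1* and *Prkag3*, with *Prkaa1* higher in 4 of 8. FPKM is scaled for transcript length, which allows this order between genes to be given. The coefficient of variation over the 8 mice was smallest for *Stk11* (12.4%) and *Prkag1* (13.04%) and largest for *Camkk1* (93.1%), *Camkk2* (49.3%) and *Prkag3* (47.7%).

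**Figure D1:**
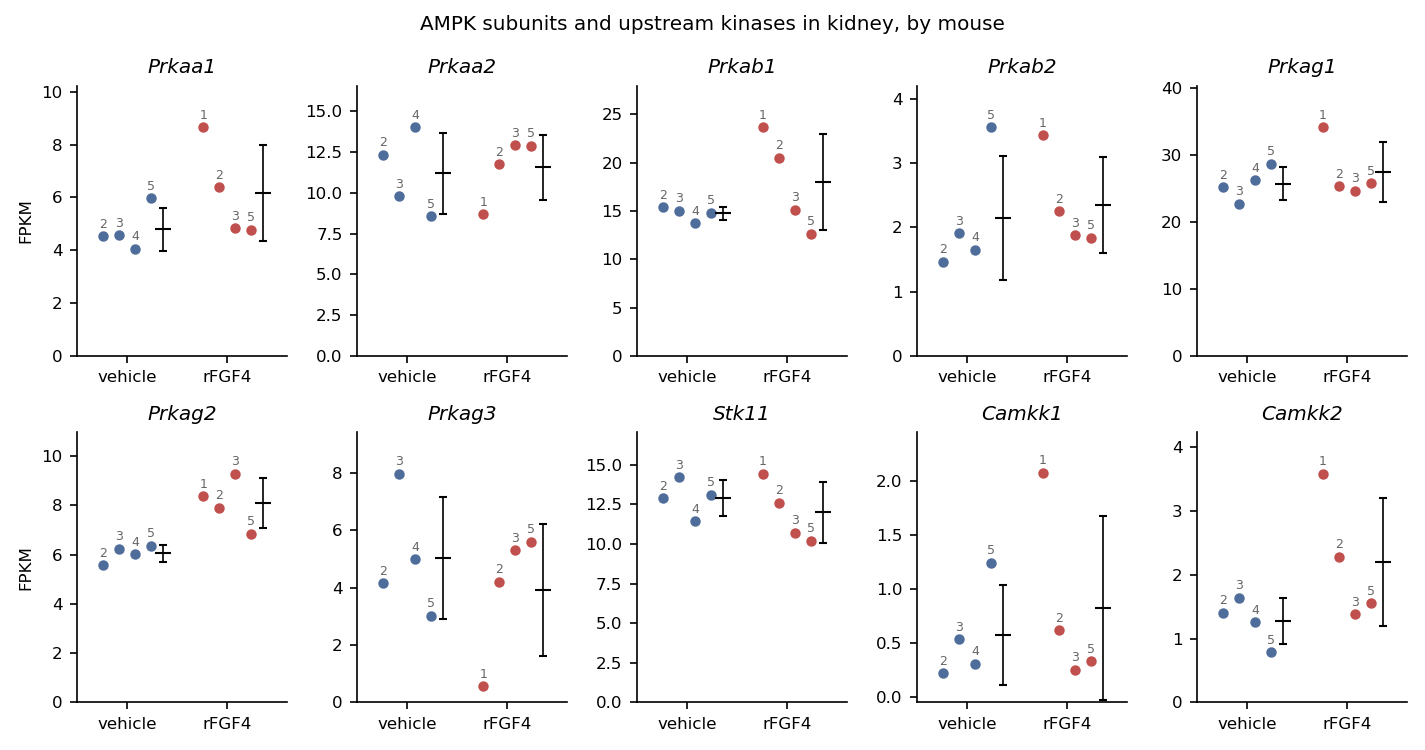
FPKM of the 10 genes (vertical axes from 0, or just below it for *Camkk1* where the SD reaches past 0) in each vehicle-treated mouse (blue) and rFGF4-treated mouse (red), labelled with the mouse number, with the mean ± SD of 4 mice in black. The groups overlap for every gene other than *Prkag2*, where the rFGF4-treated mice lie at 6.84 to 9.28 and the vehicle-treated mice at 5.57 to 6.36.

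The levels were compared as log2(FPKM + 1) with limma, in a fit over all 15150 genes that passed the filter. No gene passed a Benjamini-Hochberg adjusted p of 0.05 (0 of 15150, smallest adjusted p = 0.918), and 700 had an unadjusted p under 0.05, or 4.62% of those tested. Of these, 539 were higher (3.56%) and 161 lower (1.06%) with rFGF4. The study's threshold adds a 1.5-fold change to an unadjusted p under 0.05. Applied here to the limma p and to the difference of log2(FPKM + 1), which shrinks the folds of low genes, it was passed by 231 genes, or 1.52%. Of these, 165 were higher (1.09%) and 66 lower (0.436%), a split that became 93 and 81 under median ratio scaling of the libraries. Among the 10 AMPK genes, 1 was higher at an unadjusted p under 0.05, *Prkag2*, and 0 were lower, and 0 passed the study's threshold. Under median ratio scaling 0 were higher and 1, *Stk11*, was lower. The sign of the difference was positive for 8 and negative for 2 of them, with a median of 0.13 on the log2 scale. Over all genes tested the sign was positive for 67.1% and the median was 0.09. Nothing in the labels ties mice of the same number to each other. The limma p-values set each difference against the spread between these mice, moderated over all genes tested.

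The regulatory γ subunits hold the nucleotide-sensing sites, and *Prkag2* encodes the one known from inherited heart disease with glycogen storage. *Prkag2* (ENSMUSG00000028944) lies on the minus strand of chromosome 5, from 24862744 to 25100642 of GRCm38. RefSeq places 3 separate starts of transcription in it, and the expression table adds all of its transcripts into 1 value per mouse, so which start the reads came from was not measured. Windows of 300 bases, most of each lying before the start, are shown for *Prkag2* because it had an unadjusted limma p under 0.05 in the fit of all 8 mice. *Camkk2* had a larger log2 difference, without such a p. Capitals mark GC boxes (GGGCGG, or CCGCCC on the other strand) and CCAAT boxes (CCAAT, or ATTGG on the other strand).
*Prkag2* start at the 5′ end of the gene, chr5:25100593-25100892, minus strand: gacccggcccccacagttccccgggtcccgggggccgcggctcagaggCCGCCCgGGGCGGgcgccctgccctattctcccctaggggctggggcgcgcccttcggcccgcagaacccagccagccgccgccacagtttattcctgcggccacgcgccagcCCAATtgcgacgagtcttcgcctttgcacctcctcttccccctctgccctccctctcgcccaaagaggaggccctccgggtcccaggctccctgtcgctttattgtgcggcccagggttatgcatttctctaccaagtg
*Prkag2* middle start, chr5:24995704-24996003, minus strand: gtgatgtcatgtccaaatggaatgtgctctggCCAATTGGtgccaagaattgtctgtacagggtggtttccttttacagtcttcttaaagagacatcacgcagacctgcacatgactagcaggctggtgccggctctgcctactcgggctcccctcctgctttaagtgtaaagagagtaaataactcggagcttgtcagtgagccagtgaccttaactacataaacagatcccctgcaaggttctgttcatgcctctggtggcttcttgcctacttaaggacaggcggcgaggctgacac
*Prkag2* start nearest the 3′ end, chr5:24908460-24908759, minus strand: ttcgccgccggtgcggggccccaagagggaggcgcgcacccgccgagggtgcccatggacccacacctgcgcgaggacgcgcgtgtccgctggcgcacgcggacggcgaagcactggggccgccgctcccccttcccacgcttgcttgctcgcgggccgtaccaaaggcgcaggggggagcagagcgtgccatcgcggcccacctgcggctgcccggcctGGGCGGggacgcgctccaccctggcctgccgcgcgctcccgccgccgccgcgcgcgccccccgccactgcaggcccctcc
The upper and lower windows were rich in CpG, with 25 and 45 CpG and a GC content of 69.7% and 79.3%, and the middle one had 6 CpG and 50.3% GC. The median of all 32851 RefSeq windows of this length was 7 CpG and 52.7% GC. GC boxes were found in the upper (2) and lower (1) windows, and the 2 CCAAT matches of the middle window overlap each other on opposite strands. These letters are common, with a GC box in 35.7% and a CCAAT box in 37.4% of all windows, and a match is not evidence of binding.

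In rFGF4-treated mice 1, 2, 3 and 5, the FPKM of *Prkag2* was 8.36, 7.91, 9.28 and 6.84. In vehicle-treated mice 2, 3, 4 and 5 it was 5.57, 6.23, 6.02 and 6.36. The rFGF4-treated mice were all above the vehicle-treated mice, a separation that 2.66% of all tested genes showed in this direction and 3.33% in either direction. The means were 8.10 ± 1.01 (SD, n = 4) and 6.04 ± 0.350 (SD, n = 4), a ratio of 1.34. On the log2(FPKM + 1) scale the difference was 0.36 (standard error 0.12, 95% interval 0.09 to 0.64), with an unadjusted p of 0.0149 and an adjusted p of 0.918 in limma. The two-sided exact permutation p was 0.0286, the smallest that 4 mice against 4 allow. Under a median ratio scaling of the libraries the difference was 0.25 with an unadjusted p of 0.0804 in limma, and measured from the median of all genes it was 0.28 as deposited and 0.26 after that scaling. With rFGF4 mouse 1 and vehicle mouse 5 both left out, a step chosen after the data were seen, it was 0.37 and the unadjusted limma p stayed under 0.05. Exons of 2 antisense genes, *Prkag2os2* (at most 0.515 FPKM) and *Prkag2os1* (at most 0.0837 FPKM), cover 12.3% and 2.19% of the exon bases of *Prkag2*, and whether reads were counted by strand is not given in the sources used here.

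*Prkag1*, the γ subunit found in most tissues, made up most of the γ transcripts. It had 34.1, 25.3, 24.6 and 25.8 FPKM in rFGF4-treated mice 1, 2, 3 and 5 and 25.2, 22.7, 26.2 and 28.6 FPKM in vehicle-treated mice 2, 3, 4 and 5. Mouse 1 stood above the other 7, which overlapped. The means were 27.4 ± 4.46 and 25.7 ± 2.46 (SD, n = 4 each), a log2 difference of 0.085 (95% interval -0.23 to 0.40, adjusted limma p = 0.949, exact permutation p = 0.657) that was -0.02 without rFGF4 mouse 1. The antisense gene *B130046B21Rik* (0.0810 to 0.842 FPKM) shares 43.7% of the exon bases of *Prkag1* (chromosome 15, 98812797 to 98831521, minus strand).

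*Prkag3* encodes the γ subunit best known from fast skeletal muscle. Its FPKM was 0.570, 4.21, 5.31 and 5.60 in rFGF4-treated mice 1, 2, 3 and 5, and 4.15, 7.97, 5.001 and 3.03 in vehicle-treated mice 2, 3, 4 and 5. Mouse 1 was far below the other 7, and the groups overlapped. The means of 3.92 ± 2.31 and 5.04 ± 2.12 (SD, n = 4 each) differed by -0.43 on the log2 scale (95% interval -1.52 to 0.66, adjusted limma p = 0.926, exact permutation p = 0.543), and by 0.056 without rFGF4 mouse 1. Of the skeletal muscle markers, *Ckm* was at most 0.0593 FPKM, *Myh4* was listed at 0.0001, which stands for 0, in 8 of 8 libraries, and *Mylpf*, which passed the filter, was at 0.236 to 1.55 FPKM. The 5 together summed to 0.237 to 2.17 FPKM, with 1.13 FPKM in rFGF4 mouse 1, which had the least *Prkag3*. The highest sum was in vehicle mouse 3, which had the most *Prkag3*, and the lowest in vehicle mouse 4, which had 5.001 FPKM of *Prkag3*. Markers of the distal convoluted tubule summed to 24.5, 148, 136 and 181 FPKM in rFGF4-treated mice 1, 2, 3 and 5 and to 133, 238, 186 and 91.5 FPKM in vehicle-treated mice 2, 3, 4 and 5. The 2 mice with the least *Prkag3* and the mouse with the most were also those with the lowest and the highest sums of these distal markers, whose part, like that of the muscle markers, was not tested. *Prkag3* (chromosome 1, 74738922 to 74749221, minus strand) shares no exon base with another annotated gene. The nearest bases of *Cyp27a1*, a mitochondrial enzyme of bile acid synthesis on the plus strand, begin 1029 bases away, and *Cyp27a1* was at 16.6 to 30.8 FPKM with its lowest value in rFGF4 mouse 1 and its highest in rFGF4 mouse 5.

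Taken within each mouse, the share of a subunit in its family does not depend on how the libraries were scaled to each other. *Prkag2* made up 19.4, 21.1, 23.7 and 17.9% of the summed γ FPKM in rFGF4-treated mice 1, 2, 3 and 5, and 15.9, 16.9, 16.2 and 16.7% in vehicle-treated mice 2, 3, 4 and 5. The rFGF4-treated mice were all above the vehicle-treated mice, with means of 20.5% ± 2.47 and 16.4% ± 0.451 (SD, n = 4 each). This difference of 4.10 percentage points was not tested, and it is not a separate result, since it reuses the *Prkag2* values above. It also depends on *Prkag3* in the γ sum. Relative to *Prkag1* alone the groups overlapped: *Prkag2* and *Prkag1* were at 8.36 and 34.1 FPKM in rFGF4 mouse 1 and at 6.23 and 22.7 FPKM in vehicle mouse 3. *Prkag1* held 62.8 to 79.2% and 61.5 to 75.3% of the γ sum in the respective groups, and *Prkag3* 1.32 to 14.7% and 7.96 to 21.6%. The γ sum itself was 43.0, 37.4, 39.2 and 38.2 FPKM with rFGF4 and 34.9, 36.9, 37.2 and 38.0 FPKM with vehicle, and these overlapped.

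**Figure D2:**
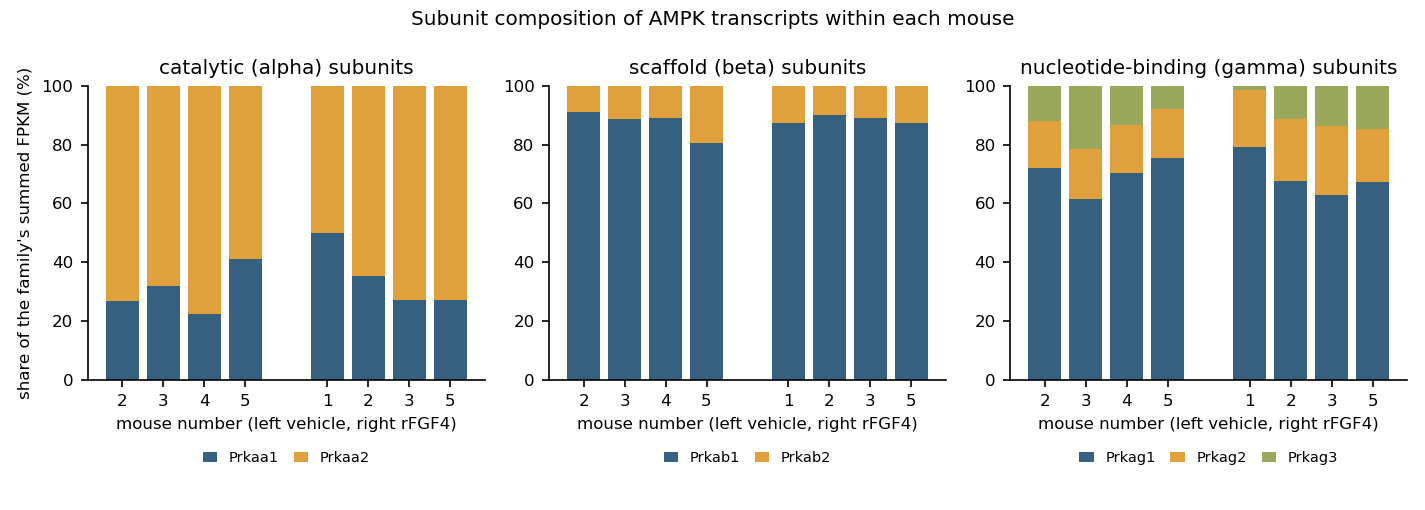
Share of each subunit in the summed FPKM of its family (vertical axis, percent), 1 bar per mouse, with the 4 vehicle-treated mice on the left of each panel and the 4 rFGF4-treated mice on the right. The share of *Prkag2* is 17.9 to 23.7% with rFGF4 and 15.9 to 16.9% with vehicle, while *Prkaa1* ranges from 22.5 to 49.9% of the α sum across both groups.

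The catalytic α subunits are alternatives to each other in the trimer, *Prkaa2* encoding α2 and *Prkaa1* encoding α1. Their promoter windows are shown because the mice with the least *Prkaa2*, rFGF4 mouse 1 and vehicle mouse 5, were among the 3 with the most *Prkaa1*. The same letters are in capitals.
*Prkaa1*, chr15:5143611-5143910, plus strand: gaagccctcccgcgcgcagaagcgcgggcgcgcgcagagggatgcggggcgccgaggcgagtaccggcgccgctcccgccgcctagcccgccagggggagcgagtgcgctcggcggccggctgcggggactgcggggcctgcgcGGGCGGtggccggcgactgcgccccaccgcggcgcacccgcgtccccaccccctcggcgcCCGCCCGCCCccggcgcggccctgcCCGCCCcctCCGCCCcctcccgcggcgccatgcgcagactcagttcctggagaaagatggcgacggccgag
*Prkaa2*, chr4:105109849-105110148, minus strand: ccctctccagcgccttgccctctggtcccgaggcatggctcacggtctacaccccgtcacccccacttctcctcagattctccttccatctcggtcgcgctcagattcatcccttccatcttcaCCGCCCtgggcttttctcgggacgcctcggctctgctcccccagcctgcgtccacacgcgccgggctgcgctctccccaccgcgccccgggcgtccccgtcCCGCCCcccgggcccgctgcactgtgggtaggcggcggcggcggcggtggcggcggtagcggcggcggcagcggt
The *Prkaa1* window held 52 CpG and 5 GC boxes at a GC content of 82%, a pair of the boxes sharing bases. That of *Prkaa2* held 35 CpG and 2 GC boxes at 72.7%. Neither had a CCAAT box. Of the 12 windows that RefSeq gives for the 10 genes, all of which were matched, 9 had a GC box and 6 a CCAAT box. A FOXO element (TGTTTAC, or GTAAACA on the other strand, in 3.65% of all windows) was present in 1, that of *Stk11*, and the cAMP response element TGACGTCA, which reads the same on both strands (1.79% of all windows), in 0.

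*Prkaa2* (chromosome 4, 105029874 to 105109890, minus strand) was at 8.70, 11.7, 12.9 and 12.9 FPKM in rFGF4-treated mice 1, 2, 3 and 5 and at 12.3, 9.80, 14.0 and 8.59 FPKM in vehicle-treated mice 2, 3, 4 and 5. The groups overlapped, with rFGF4 mouse 1 and vehicle mouse 5 lowest. The means were 11.6 ± 1.99 and 11.2 ± 2.46 (SD, n = 4 each), and the log2 difference was 0.051 (95% interval -0.37 to 0.47, adjusted limma p = 0.974, exact permutation p = 0.857). Its sign turned under 4 of 16 alternatives. The 4 mice with the least *Prkaa2* were those with the least proximal tubule marker expression, at 243 (rFGF4 mouse 1), 701 (vehicle mouse 5), 723 (vehicle mouse 3) and 769 FPKM (rFGF4 mouse 2). The same 4 mice had the most macrophage, B lymphocyte, smooth muscle and podocyte marker expression. Above them both *Prkaa2* and the proximal tubule sum went up together through vehicle mouse 2 (1013), rFGF4 mice 5 and 3 (1071 and 1097) and vehicle mouse 4 (1214).

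*Prkaa1* (chromosome 15, 5143861 to 5181899, plus strand) was at 8.66, 6.38, 4.83 and 4.79 FPKM in rFGF4-treated mice 1, 2, 3 and 5 and at 4.54, 4.58, 4.07 and 5.97 FPKM in vehicle-treated mice 2, 3, 4 and 5. The groups overlapped, with rFGF4 mice 1 and 2 and vehicle mouse 5 highest. The means of 6.16 ± 1.82 and 4.79 ± 0.821 (SD, n = 4 each) differed by 0.28 on the log2 scale (95% interval -0.16 to 0.73, adjusted limma p = 0.919, exact permutation p = 0.171), and by 0.13 without rFGF4 mouse 1. The 3 mice with the most *Prkaa1* were also the 3 with the most macrophage marker expression, at 83.2, 31.8 and 84.2 FPKM. The ratio of *Prkaa1* to *Prkaa2* was 0.996 in rFGF4 mouse 1 and 0.695 in vehicle mouse 5, and 0.290 to 0.543 in the other 6 mice. The part of tubule and macrophage RNA in these values was not tested. The α sum was 17.4, 18.1, 17.8 and 17.7 FPKM with rFGF4 and 16.9, 14.4, 18.1 and 14.6 FPKM with vehicle, a narrower range than that of either gene, and the groups overlapped.

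**Figure D3:**
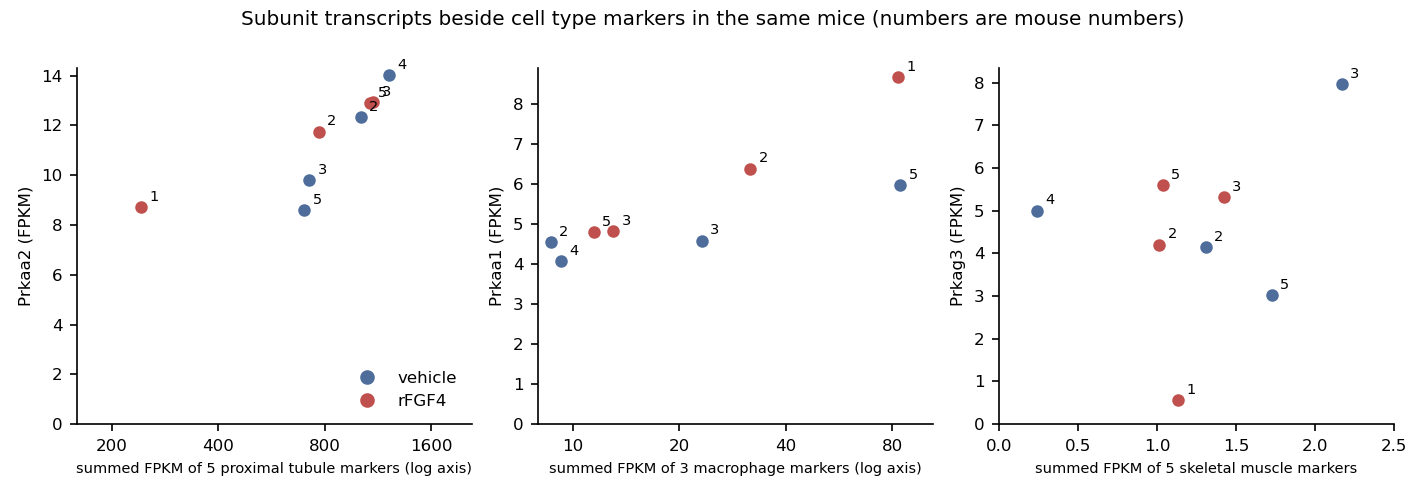
FPKM of *Prkaa2*, *Prkaa1* and *Prkag3* (vertical axes) against the summed FPKM of 5 proximal tubule, 3 macrophage and 5 skeletal muscle markers (horizontal axes, the first and second on a log scale) in each mouse, labelled with the mouse number, vehicle in blue and rFGF4 in red. The mice with the lowest proximal tubule sums, 243 to 769 FPKM, have the lowest *Prkaa2*, and the muscle sums lie between 0.237 and 2.17 FPKM.

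The scaffold β subunits link α to γ and carry a glycogen-binding domain. *Prkab1* (chromosome 5, 116013586 to 116024508, minus strand) was at 23.7, 20.5, 15.1 and 12.6 FPKM in rFGF4-treated mice 1, 2, 3 and 5 and at 15.4, 15.0, 13.7 and 14.8 FPKM in vehicle-treated mice 2, 3, 4 and 5. The rFGF4-treated mice covered both the highest and the lowest values, so the groups overlapped. The means were 18.0 ± 5.01 and 14.7 ± 0.720 (SD, n = 4 each), a log2 difference of 0.23 (95% interval -0.20 to 0.67, adjusted limma p = 0.920, exact permutation p = 0.343). It was 0.095 without rFGF4 mouse 1 and 0.38 (unadjusted limma p of 0.0497) without rFGF4 mouse 5. *Prkab2* (chromosome 3, 97658193 to 97673812, plus strand), the β subunit of the lower level here, was at 3.44, 2.25, 1.88 and 1.84 FPKM with rFGF4 and 1.47, 1.91, 1.65 and 3.56 FPKM with vehicle in the same order of mice. Its highest values were in vehicle mouse 5 and rFGF4 mouse 1, the mice with the most macrophage and B lymphocyte and the least proximal tubule marker expression, whose part was not tested. The means of 2.35 ± 0.745 and 2.15 ± 0.959 (SD, n = 4 each) differed by 0.11 on the log2 scale (95% interval -0.42 to 0.64, adjusted limma p = 0.955, exact permutation p = 0.6), and by -0.032 without rFGF4 mouse 1. *Prkab1* was 87.3 to 90.1% of the β sum with rFGF4 and 80.6 to 91.3% with vehicle.

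Among the kinases that act on AMPK, *Stk11* (LKB1) was the most abundant and the least variable. *Stk11* (chromosome 10, 80115803 to 80130682, plus strand) was at 14.4, 12.6, 10.7 and 10.2 FPKM in rFGF4-treated mice 1, 2, 3 and 5 and at 12.9, 14.2, 11.4 and 13.1 FPKM in vehicle-treated mice 2, 3, 4 and 5. The groups overlapped, with rFGF4 mice 3 and 5 below all vehicle-treated mice and mouse 1 above them. The means of 12.0 ± 1.93 and 12.9 ± 1.14 (SD, n = 4 each) differed by -0.11 on the log2 scale (95% interval -0.42 to 0.20, adjusted limma p = 0.932, exact permutation p = 0.429). It was -0.19 without rFGF4 mouse 1 and -0.040 without rFGF4 mouse 5. The difference was -0.23 with an unadjusted p of 0.0469 in limma under median ratio scaling and 0.11 when FPKM was rescaled to TPM, scalings that moved the median of all genes from 0.09 to -0.01 and 0.29. Measured from that median, *Stk11* was lower by a like amount in each, at -0.19 as deposited, -0.22 under median ratio scaling and -0.19 as TPM. Exons of *Cbarp* on the other strand (0.542 to 3.83 FPKM) share 5.07% of its exon bases.

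*Camkk2* (chromosome 5, 122731170 to 122779409, minus strand), the calcium-dependent AMPK kinase, was at 3.58, 2.28, 1.38 and 1.55 FPKM in rFGF4-treated mice 1, 2, 3 and 5. In vehicle-treated mice 2, 3, 4 and 5 it was at 1.41, 1.64, 1.25 and 0.783 FPKM. Mice 1 and 2 with rFGF4 were above all vehicle-treated mice, and the other 2 lay among them. The means were 2.20 ± 1.001 and 1.27 ± 0.362 (SD, n = 4 each), a ratio of 1.73, and the log2 difference was 0.46 (standard error 0.23, 95% interval -0.07 to 0.99, adjusted limma p = 0.918, exact permutation p = 0.143). It was positive under all 16 alternatives, from 0.16 with rFGF4 mouse 1 and vehicle mouse 5 both left out to 0.75 as TPM, and was 0.27 without rFGF4 mouse 1. *Camkk1* (chromosome 11, 73019008 to 73042073, plus strand), its relative known chiefly from the nervous system, reached 0.5 FPKM in exactly 4 libraries. It was at 2.08, 0.617, 0.252 and 0.329 FPKM with rFGF4 and 0.221, 0.534, 0.308 and 1.25 FPKM with vehicle in the same order of mice. The 4 higher values, 2 in each group, were in the 4 mice with the highest sums of macrophage (23.2 to 84.2 FPKM), B lymphocyte (663 to 22374 FPKM), smooth muscle and podocyte markers and the lowest of proximal tubule markers. These lists cannot be told apart here, and their part was not tested. The log2 difference of *Camkk1* was 0.15 (95% interval -0.57 to 0.87, adjusted limma p = 0.956, exact permutation p = 0.6) and -0.14 without rFGF4 mouse 1.

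**Figure D4:**
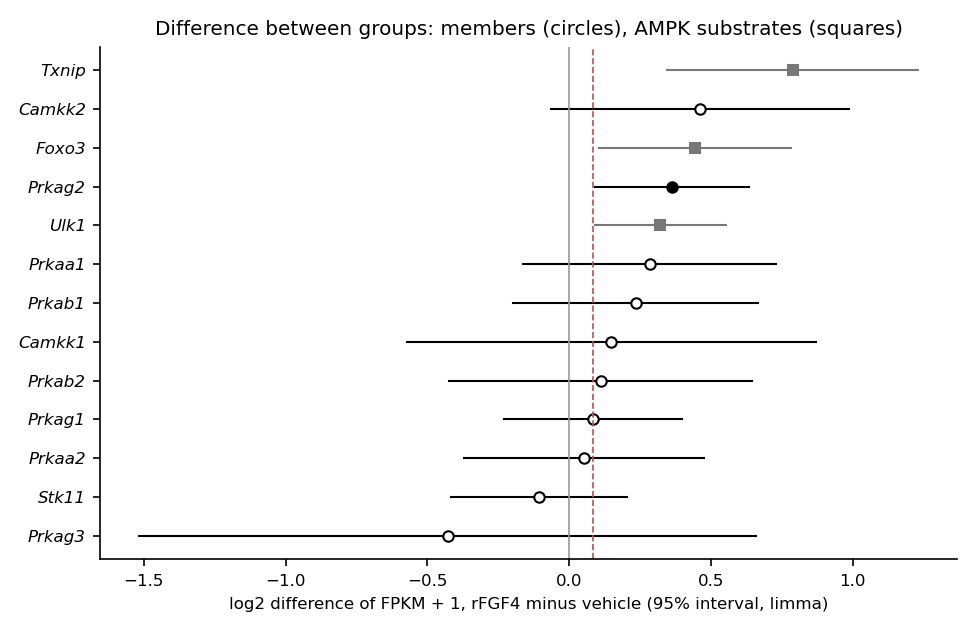
Difference between rFGF4- and vehicle-treated mice on the log2(FPKM + 1) scale with its 95% limma interval (horizontal axis) for the 10 AMPK genes (circles) and 3 AMPK substrates (grey squares), filled where the unadjusted p was under 0.05. The solid line marks 0 and the dashed line the median of all genes tested, 0.09. *Prkag2* has an interval of 0.09 to 0.64, and the intervals of the other 9 AMPK genes include 0.

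Mouse 1 of the rFGF4 group had the highest FPKM of all 8 mice for 6 of the 10 AMPK genes and the lowest for 1. Of all tested genes, 48.1% had their highest value in this mouse. Without it, the sign of the difference turned for *Prkag1*, *Prkab2*, *Prkag3* and *Camkk1*, while *Prkag2* kept a log2 difference of 0.35. Leaving out any single mouse gave *Prkag2* a difference of 0.30 to 0.43 with an unadjusted limma p of 0.00718 to 0.0462.

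The genes with the pattern most like that of *Prkaa2* over the 8 mice, by Pearson's r of log2(FPKM + 1) and with no test, were *Slc25a13*, the mitochondrial aspartate-glutamate carrier citrin (r = 0.990, Spearman's rho = 1), *Tex2* (r = 0.984, rho = 0.976) and *Myh14*, a non-muscle myosin heavy chain (r = 0.977, rho = 0.952). Without the 2 mice farthest from the median of *Prkaa2*, r was 0.989, 0.982 and 0.930. *Slc25a13* ran from 14.6 FPKM in vehicle mouse 5 to 23.8 FPKM in vehicle mouse 4, the mice with the least and the most *Prkaa2*. For *Prkag2* the most alike were *Myo7b*, a myosin of the brush border (r = 0.978, rho = 0.929), *Aven*, an inhibitor of apoptosis (r = 0.968, rho = 0.952), and *Dync1li1*, a dynein light intermediate chain (r = 0.964, rho = 0.952). Without the 2 mice farthest from the median of *Prkag2*, these r were 0.934, 0.931 and 0.944. The 8 points of each share their library and its scaling, and the genes were the highest of all those tested.

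The rest of the pathway was described by 6 lists of 74 genes, of which 69 were tested. At an unadjusted p under 0.05, 3 were higher with rFGF4 and 0 were lower, or 4.35% of those tested, beside 4.62% over all genes. The split was 1 higher and 1 lower under median ratio scaling, 6 and 1 with no filter, and 6 and 2 without rFGF4 mouse 5. The median log2 difference was 0.12, beside 0.09 over all genes. The groups did not overlap for 6 genes (8.70%, beside 3.33% over all genes), each with the rFGF4-treated mice above: *Txnip*, *Ulk1*, *Foxo3*, *Sik2*, *Tbc1d1* and *Adipor1*. In that direction alone the share over all genes was 2.66%. This count was made on the FPKM as deposited and was not repeated under other scalings. The smallest adjusted p in the lists was 0.918.

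Of 17 AMPK substrates in lipid and sugar metabolism, all tested, 1 was higher and 0 lower, with a median of 0.08. *Txnip*, which encodes an arrestin that draws glucose transporters from the membrane and is known to be induced by glucose, had 230, 237, 179 and 154 FPKM in rFGF4-treated mice 1, 2, 3 and 5. In vehicle-treated mice 2, 3, 4 and 5 it had 101, 112, 101 and 147 FPKM, all below the rFGF4-treated mice. The means were 200 ± 40.3 and 115 ± 21.7 (SD, n = 4 each), a ratio of 1.74, and the log2 difference was 0.79 (standard error 0.19) with an unadjusted p of 0.00329 and an adjusted p of 0.918 in limma. It was the 1 gene of the 6 lists to pass the study's threshold. The antisense gene *Gm15441* (0.432 to 1.08 FPKM) shares 19.4% of its exon bases.

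Of 17 substrates in growth, autophagy and mitochondria, all tested, 2 were higher and 0 lower, with a median of 0.12. *Ulk1*, the kinase that starts autophagy, had means of 12.5 ± 0.858 and 9.81 ± 0.542 FPKM (SD, n = 4 each), a log2 difference of 0.32 with an unadjusted limma p of 0.0124. *Foxo3*, a transcription factor of stress resistance, had means of 15.1 ± 2.76 and 10.7 ± 1.19 FPKM (SD, n = 4 each), a log2 difference of 0.44 with an unadjusted limma p of 0.0164. Both had an exact permutation p of 0.0286 and an adjusted limma p of 0.918, and both missed an unadjusted limma p of 0.05 under median ratio scaling (0.165 and 0.108). Measured from the median of all genes, *Ulk1* was 0.24 as deposited and 0.21 after that scaling, and *Foxo3* was 0.36 and 0.34.

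**Figure D5:**
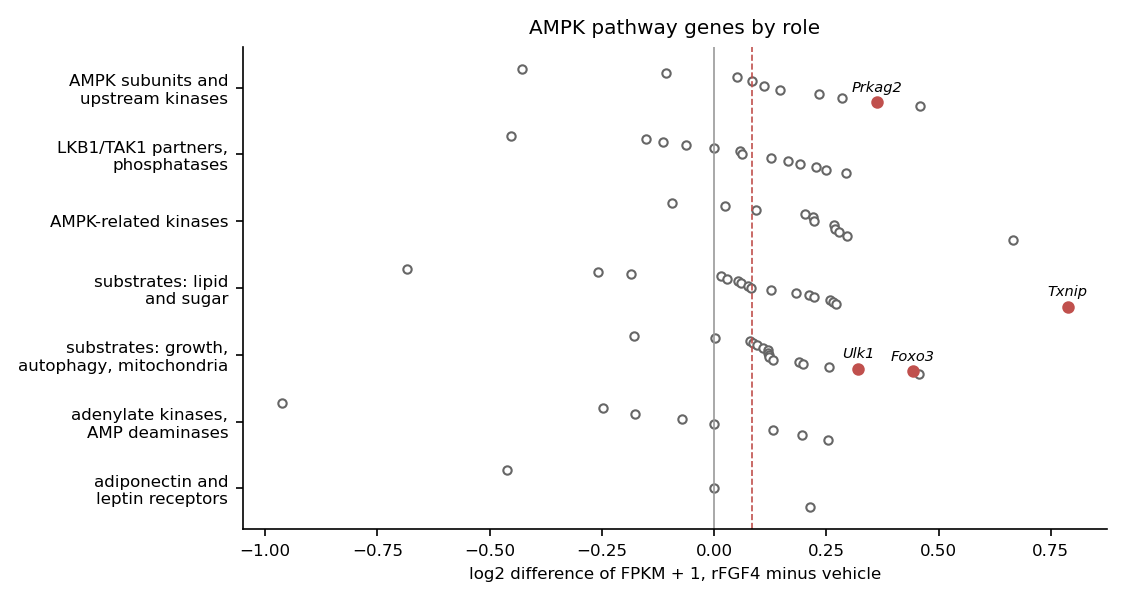
Difference between rFGF4- and vehicle-treated mice on the log2(FPKM + 1) scale (horizontal axis), 1 point per tested gene, for the 10 AMPK genes and the 6 lists of pathway genes (rows). Filled red points have an unadjusted p under 0.05 (*Prkag2*, *Txnip*, *Ulk1* and *Foxo3*), the solid line marks 0 and the dashed line the median of all genes tested, 0.09.

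In the other lists no gene had an unadjusted p under 0.05 in the fit of all 8 mice, and the 2 with the smallest limma p are given for each, with an exact permutation p and, in every case, an adjusted limma p of 0.918 or more. Of 14 partners of LKB1 and TAK1 and phosphatases of AMPK, 13 were tested, with a median of 0.063. *Flcn* (folliculin, which restrains AMPK) had 5.84 ± 1.86 and 8.24 ± 1.77 FPKM (log2 difference -0.45, exact permutation p = 0.143), and *Cab39*, the MO25 scaffold of LKB1, had 14.0 ± 0.992 and 12.1 ± 0.795 FPKM (0.19, exact permutation p = 0.0571), each as mean ± SD of 4 mice. *Flcn* gained an unadjusted limma p under 0.05 under median ratio scaling (-0.56, limma p of 0.0343), without rFGF4 mouse 5 (-0.62, limma p of 0.0115) and without vehicle mouse 2 (-0.57, limma p of 0.0381). Of 12 kinases related to AMPK that LKB1 also phosphorylates, 11 were tested, with a median of 0.22. The salt-inducible kinases *Sik3* (9.61 ± 0.993 and 7.81 ± 0.824 FPKM, log2 difference 0.27, exact permutation p = 0.0571) and *Sik2* (1.21 ± 0.244 and 0.893 ± 0.0707 FPKM, 0.22, exact permutation p = 0.0286) led them. The difference of *Sik3* was 0.32 without rFGF4 mouse 1 (unadjusted limma p of 0.0295). It was 0.15 under median ratio scaling (unadjusted limma p of 0.397) and 0.50 as TPM (unadjusted limma p of 0.0190). Of 10 adenylate kinases and AMP deaminases, which set the AMP level that AMPK reads, 8 were tested, with a median of -0.04. *Ampd2* had 4.72 ± 1.11 and 3.74 ± 0.301 FPKM (0.25, exact permutation p = 0.143), and *Ak1* had 8.05 ± 1.43 and 9.77 ± 1.98 FPKM (-0.25, exact permutation p = 0.286). The difference of *Ampd2* was 0.14 without rFGF4 mouse 1 and 0.37 (unadjusted limma p of 0.0330) without rFGF4 mouse 5, and that of *Ak1* was -0.13 without rFGF4 mouse 3 and without vehicle mouse 2. Of 4 receptors of adiponectin and leptin, hormones known to act through AMPK, 3 were tested. *Lepr* was at 0.733 ± 0.509 and 1.35 ± 0.481 FPKM (-0.46, exact permutation p = 0.143) and *Adipor1* at 24.7 ± 2.22 and 21.1 ± 1.32 FPKM (0.21, exact permutation p = 0.0286). Without rFGF4 mouse 5 the difference of *Lepr* was -0.64 (unadjusted limma p of 0.0121). No marker list of tubule segments, podocytes, endothelium, smooth muscle, macrophages, lymphocytes or red blood cells separated the groups by its summed level, and the 5 podocyte markers summed to 64.6 to 90.5 FPKM with rFGF4 and 46.0 to 84.8 FPKM with vehicle. Of these podocyte markers 1, *Synpo* (synaptopodin, of the foot process), had an unadjusted limma p under 0.05, at 3.93 ± 1.79 and 1.58 ± 0.475 FPKM (SD, n = 4 each, exact permutation p = 0.0571).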

How the data were processed

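Paired-end poly(A) libraries were made from the kidneys of 8 mice, 4 per group, 1 library per mouse. The deposited values are the authors' FPKM, 1 per gene and library, based on StringTie and Gffcompare. The submitters' processing notes name HISAT2 2.0, StringTie 1.3.0, Bowtie 0.12.2 and the mm8 build, with no roles. The deposited table has no coordinates, and 55141 of its 55401 identifiers (99.5%) are in GENCODE M21 on GRCm38, which was used for positions; promoter windows came from RefSeq on GRCm38.p6. The authors' deposited fold changes, p-values and q-values were not used. A value of 0.0001 was taken to stand for 0.

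The count model of the study's methods needs read counts, so here genes with 0.5 FPKM or more in at least 4 libraries were compared as log2(FPKM + 1) by limma 3.58.1 (R 4.3.3), using a trended prior variance and Benjamini-Hochberg adjustment over all 15150 tested genes. A two-sided exact permutation test over the mice was run on the FPKM of each single gene. The table gives no depth, and no counting interval was calculated. The procedure was tested on simulated data. Each AMPK gene is named, as is each gene of a pathway list with an unadjusted p under 0.05, or the 2 with the smallest p in lists with none; the other non-overlapping list genes, *Tbc1d1* among them, were named after their values were seen. The genes and lists were chosen with earlier results of these data known. Alternatives were a pseudocount of 0.1, no filter, median ratio scaling, TPM with and without mitochondrial genes, no trend, a block for the mouse number and each mouse left out. Plots were made in Python 3.11.15 (matplotlib 3.10.9).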

Additional observations from a re-analysis of the deposited data

Results flagged for a closer look

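Of 54 sets of 4 values checked for a sample far from the others, 2 stood out, where chance gives about 2.7 at 1 in 20. Both concern rFGF4 mouse 1. For *Prkag1*, this mouse was the highest of its group at 34.1 FPKM, and its gap to the next mouse was 0.860 of the range of log2(FPKM + 1). For *Prkag3*, it was the lowest of its group at 0.570 FPKM, with a gap of 0.835 of the range. Both exceed Dixon's 95% limit for 4 values. The same mouse had the lowest sums of proximal tubule (243 FPKM) and distal convoluted tubule markers (24.5 FPKM).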

How the results depend on the processing

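The number of genes past the study's threshold was 231. It was 348 with a pseudocount of 0.1, 686 as TPM (647 higher, 39 lower), 457 as TPM without mitochondrial genes (396 higher, 61 lower), and 187 to 575 with a mouse left out (575 without rFGF4 mouse 5, 432 without vehicle mouse 5). An adjusted limma p under 0.05 was reached by 1 gene with no filter and by 1 each without vehicle mouse 2, 4 or 5, none of them an AMPK gene. The median of all genes, 0.09 on the log2 scale, became -0.01 under median ratio scaling, 0.29 as TPM and 0.19 as TPM without mitochondrial genes. Measured from that median, the difference of *Prkag2* was 0.26 to 0.31 under these scalings.

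AMPK genes with an unadjusted p under 0.05 numbered 1 in the reported fit, 1 under median ratio scaling (*Stk11*, lower, in place of *Prkag2*), 2 as TPM (*Prkag2* and *Camkk2*), 1 to 2 with a mouse left out (2 without rFGF4 mouse 3, adding *Camkk2*, and without rFGF4 mouse 5, adding *Prkab1*) and 0 with the replicate block. *Prkag2* kept its direction in all 16 alternatives and its unadjusted p under 0.05 in 14, missing it under median ratio scaling (0.25, limma p of 0.0804) and with the replicate block (0.35, limma p of 0.123). Same-numbered mice did not deviate together (correlations of -0.23, -0.16 and -0.39 for mice 2, 3 and 5), and none correlated best with its own number, so the numbers were not taken as a pairing. Pathway genes at that p numbered 3, and 2 under median ratio scaling (1 higher, 1 lower), 2 with the replicate block (1 higher, 1 lower), 7 with no filter (6 higher, 1 lower), 9 as TPM, 9 as TPM without mitochondrial genes, 3 to 8 with a mouse left out (8 without rFGF4 mouse 5) and 5 with rFGF4 mouse 1 and vehicle mouse 5 both left out. With the replicate block *Txnip* (0.66, limma p of 0.0743), *Ulk1* (0.33, limma p of 0.101) and *Foxo3* (0.45, limma p of 0.0885) missed that p, and *Lepr* (-0.48, limma p of 0.0394) passed it. The cause of these moves was not tested.

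The sign turned for some log2 differences, none of which had an unadjusted limma p under 0.05 in the reported fit. It turned under median ratio scaling for *Prkaa2* (-0.066) and *Prkag1* (-0.041) and as TPM for *Stk11* (0.11). With the replicate block it turned for *Prkab2* (-0.099), *Prkag1* (-0.0097), *Prkag3* (0.074) and *Camkk1* (-0.22). These scalings move all genes of a library alike: measured from the median of all genes, *Stk11* was between -0.22 and -0.19, *Prkaa2* between -0.055 and -0.023 and *Prkag1* between -0.030 and 0.015 under each of them. With each mouse left out, *Prkaa2* ranged from -0.056 to 0.17 (-0.0034 without rFGF4 mouse 3, -0.0017 without rFGF4 mouse 5), *Prkab2* from -0.032 to 0.30, *Prkag1* from -0.020 to 0.14, *Prkag3* from -0.63 to 0.056 and *Camkk1* from -0.14 to 0.33. The other 295 values of single genes kept their direction and side of the threshold, 20 gained an unadjusted p under 0.05 and 7 lost it. Without counts, the depth behind genes near the filter, such as *Camkk1*, is unknown.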
